A study of Mus musculus with 58 samples.

Results

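The SPEN SPOC mutation was examined in undifferentiated mouse embryonic stem cells (mESCs) after 1 day of Xist induction, in a line that also carries a degron tag on PCGF3 and PCGF5. The comparison takes 4 of the 58 libraries of the series, chosen by their labels: 2 libraries of FKBP12-PCGF35_SPOC cells, 1 from each of clones F10 and F6, against 2 replicate libraries of the FKBP12-PCGF35 line in which Spen was not mutated. The groups are called PCGF35_SPOC and PCGF35 here. All 4 cultures derive from iXist-ChrX-Dom, a female hybrid line with a domesticus (Dom) and a castaneus (Cast) X chromosome, in which a TetO promoter drives Xist from the Dom X. All 4 carry the FKBP12 tag on both PCGF proteins, all 4 received doxycycline at 1 μg/mL for 1 day in serum and LIF medium, and none received dTAG-13, the compound that triggers degradation of the tagged proteins. The 4 libraries of the same lines at day 0, before doxycycline, were the uninduced reference. Each PCGF35_SPOC clone is 1 cell line, and the study notes that F6 was sub-cloned before sequencing, because RNA-FISH had shown a sub-population with a single X. The study describes the PCGF35 libraries as replicate experiments of 1 line, while their labels give only a replicate number. The spread within a group is therefore between clones in PCGF35_SPOC and between replicates of 1 line in PCGF35. In the main edgeR fits, p-values rest on a spread estimated over all embryonic stem cell libraries of the series, not the 4 compared alone.

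Xist is a long noncoding RNA that coats the chromosome from which it is transcribed and silences its genes. SPEN binds the A-repeat of Xist, and its C-terminal SPOC domain recruits the SMRT and NCoR corepressors, which activate the histone deacetylase HDAC3. The point mutations used in the study disrupt the binding of SMRT and NCoR to that domain. PCGF3 and PCGF5 are subunits of variant PRC1 complexes, which ubiquitinate histone H2A and start Polycomb recruitment to the inactive X, and they were not depleted in the cultures compared. What the comparison asks is how much of the silencing seen after 1 day depends on the SPOC domain while PCGF3 and PCGF5 are in place.

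Chromatin-associated RNA was sequenced, which enriches for nascent transcripts. The 4 day 1 libraries held 17293194 to 21040221 fragments assigned to genes, of which 46.3% to 46.6% could be assigned to an allele. Silencing was read as the Dom share, the allelic ratio Dom/(Dom + Cast), over the X genes for which the authors deposited ratios, of which 239 were deep enough for the gene-level test and 7 were not. All of these genes lie on the centromere side of Xist, and the median gene had 185.5 to 277 allelic fragments per day 1 library. The stem cell markers Zfp42 (539 to 1269 CPM, the fragments of a gene scaled to library size) and Esrrb (404 to 578 CPM) were abundant in all 4. Clone F10 stood apart in more than 1 respect. Early differentiation genes summed to 140 CPM there on day 1, against 54.5 in F6 and 54.2 and 45.7 in PCGF35. The summed level of 16 feeder fibroblast markers was 76.9 CPM on day 1, against 15.1 in F6 and 15.4 and 18.2 in PCGF35. Fn1 and Fbn1, which made up most of the full list of 18, were left out of this sum after their values were seen, and with them the sums were 726 in F10 and 536 to 725 CPM in the other 3. Main results are therefore also given without this clone.

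The engineered genes were read first, and Xist rose in both lines. Its level on day 1 was 3233 and 2674 CPM in PCGF35 and 2559 and 3244 CPM in clones F10 and F6, from 45.5 to 76.9 CPM in the day 0 libraries. The day 1 groups overlapped, and the log2 fold change of PCGF35_SPOC over PCGF35 was -0.03 (SE 0.30, edgeR adjusted p = 0.994), with a sign that turned to 0.04 under scaling by total count alone and also when 1 library was left out (-0.21 to 0.13). Of the allelic Xist fragments on day 1, 99.9% to 100.0% came from Dom. Spen itself stood at 133 and 71.3 CPM in PCGF35 and 275 and 308 CPM in the clones, which lay above both PCGF35 libraries. The log2 fold change was 1.52 (SE 0.31, edgeR adjusted p = 0.22), and a difference of 1.73 was already there on day 0 (139 and 68.7 against 354 and 335 CPM). The DESeq2 Wald test gave an adjusted p of 0.00404 for the day 1 difference. The counts do not show the point mutations. Pcgf3, at 85.9 to 94.3 CPM, and Pcgf5, at 43.8 to 54.1 CPM, had log2 fold changes of 0.09 and 0.02.

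With the SPOC mutation the Dom X stayed close to its uninduced level. The median Dom share of these genes on day 1 was 0.342 and 0.324 in the PCGF35 libraries, and 0.476 in clone F10 and 0.483 in clone F6. Both clones lay above both PCGF35 libraries, and the group means were 0.333 ± 0.0125 and 0.479 ± 0.00516 (SD, n = 2 each), a difference of 0.146. Every pairing of 1 clone with 1 PCGF35 library gave a difference between 0.134 and 0.159. An exact two-sided permutation test of 2 against 2 libraries cannot go below p = 0.333, which is the value obtained. On day 0 the medians were 0.509 and 0.511 in PCGF35 and 0.516 and 0.514 in the clones, and the PCGF35_SPOC clones were slightly above both PCGF35 libraries before induction. From day 0 to day 1 the median therefore fell by 0.176 in PCGF35 and by 0.0356 in PCGF35_SPOC. The autosomal Dom percentage was 51.4% to 51.7% in the 4 day 1 libraries, and on the 19 autosomes the day 1 difference between the lines ran from -0.405 to 0.507 percentage points, against 14.6 for the X genes with a deposited ratio.

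**Figure D1:**
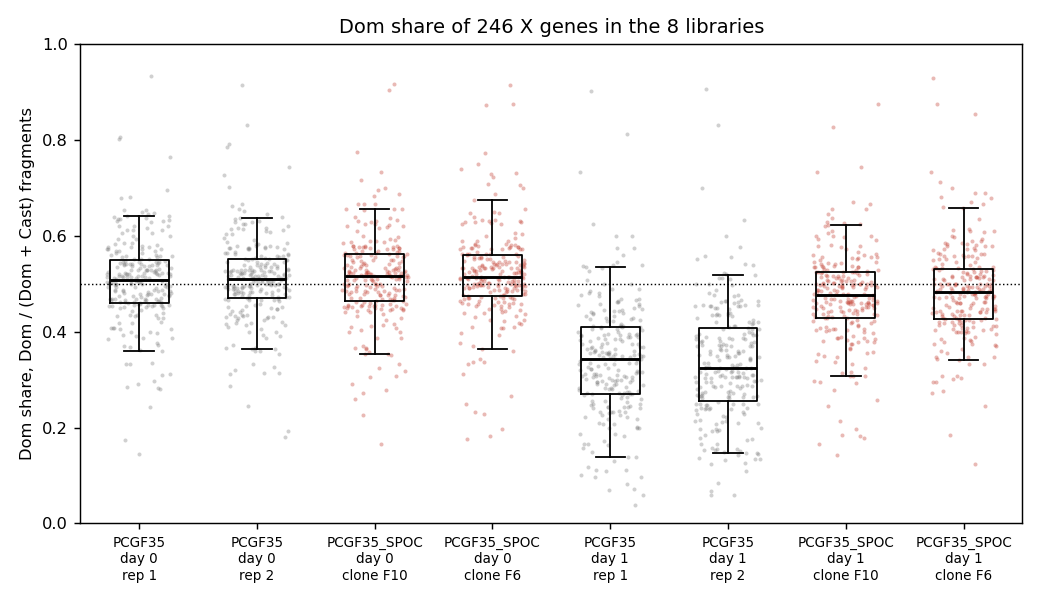
Dom share (y axis) of the X genes with a deposited ratio in each of the 8 libraries of both lines; points are genes, boxes span the quartiles with the median as a line, and whiskers reach the 5th and 95th percentiles. The day 1 medians are 0.342 and 0.324 in PCGF35 and 0.476 and 0.483 in PCGF35_SPOC, and the 4 day 0 medians are between 0.509 and 0.516.

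The shift ran through the whole distribution. A Dom share under 0.4 was measured for 177 and 181 genes in the PCGF35 day 1 libraries and for 43 and 34 genes in clones F10 and F6, compared with 18 to 25 genes in the day 0 libraries. Shares under 0.25, which mark strong loss of the Dom allele, were found for 52 and 57 genes in PCGF35 and for 8 and 3 in the clones.

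Gene by gene, the mean Dom share on day 1 was higher in PCGF35_SPOC for 237 X genes and lower for 9, with a median difference of 0.137 and quartiles of 0.0870 and 0.198. Both clones lay above both PCGF35 libraries for 212 genes (86.2%), against 16.8% of 11817 autosomal genes tested, and below both for 3 genes. The gene-level test used edgeR (quasi-likelihood) on allele counts of the 26 ES libraries and was adjusted over 12257 genes with a mean of at least 20 allelic fragments. Of all these genes, 103 (0.84%) had an adjusted p under 0.05, 102 with a higher share in PCGF35_SPOC (0.832%) and 1 with a lower share (0.00816%). Of the 239 X genes that could be tested, 95 (39.7%) passed, all with a higher Dom share in PCGF35_SPOC, and 178 had an unadjusted p under 0.05. Between 74 and 81 genes passed when 1 of the 4 libraries was left out, with 81 without clone F10, and limma on the ratios called 168 genes higher and 1 lower. On day 0 no X gene passed by edgeR or limma, and 10 of 239 had an unadjusted p under 0.05 by edgeR. Only 1 of 11817 autosomal genes (0.00846%) passed on day 1, Itga9, an integrin subunit gene, with a mean Dom share of 0.776 in PCGF35 and 0.650 in PCGF35_SPOC.

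**Figure D2:**
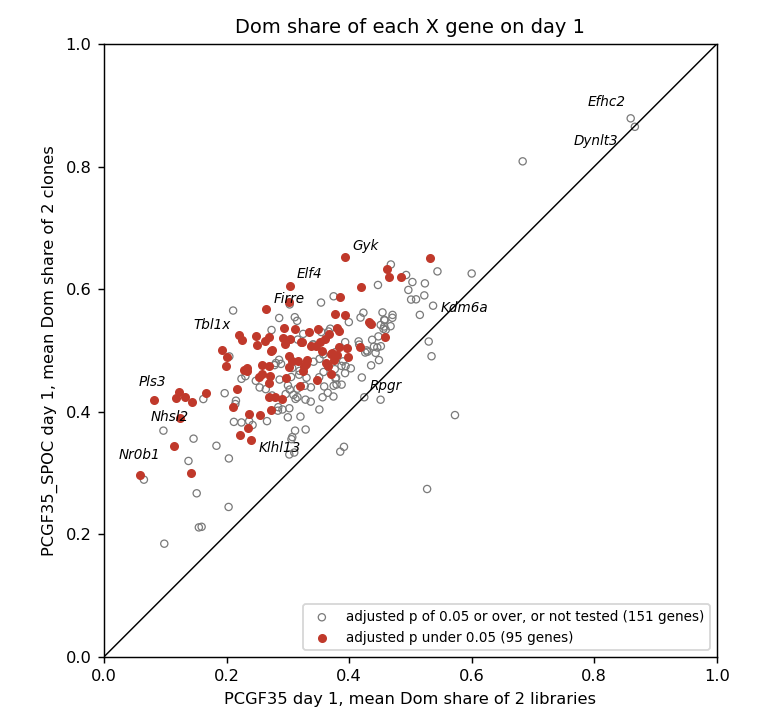
Mean Dom share of each X gene with a deposited ratio on day 1 in PCGF35 (x axis, 2 libraries) and in PCGF35_SPOC (y axis, 2 clones), with equal shares on the diagonal; filled points are the 95 genes with an adjusted p under 0.05. The 237 genes above the diagonal have the higher share in PCGF35_SPOC.

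The genes with the largest differences had low Dom shares in PCGF35 and much higher ones in both clones. They are the 15 with the largest difference among called genes with at least 100 allelic fragments in each day 1 library. Nhsl2, a NHS family gene (chrX 101849384 to 102092055 on mm10, on the centromere side of Xist), had Dom shares of 0.0960 and 0.0673 in PCGF35 and 0.405 and 0.433 in clones F10 and F6. This was the largest difference of the 15, at 0.337 (log2 odds ratio 3.03, SE 0.23, adjusted p = 7.55e-08). Pls3, which encodes the actin-bundling protein plastin 3 (chrX 75785653 to 75875170), had shares of 0.102 and 0.133 in PCGF35 and 0.433 and 0.412 in clones F10 and F6. The 2 groups were 0.305 apart (log2 odds ratio 2.43, SE 0.20, adjusted p = 1.89e-07). Tbl1x, which encodes a core subunit of the NCoR and SMRT corepressor complexes and is thus itself an X-linked member of the pathway that the SPOC domain engages, is at chrX 77511226 to 77660265. Its shares were 0.227 and 0.215 in PCGF35 and 0.527 and 0.524 in clones F10 and F6, from at least 2228 allelic fragments per library, and the difference of 0.304 had the smallest adjusted p of the 15 (3.12e-12). Firre, a long noncoding RNA gene involved in nuclear organisation (chrX 50555743 to 50635258), had shares of 0.248 and 0.281 in PCGF35 and 0.573 and 0.562 in clones F10 and F6, 0.303 apart (adjusted p = 4.84e-10). In each of these 4 genes the clones lay close to each other and far above both PCGF35 libraries.

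The glypicans Gpc4 and Gpc3, neighbouring genes for cell-surface heparan sulphate proteoglycans, both had the higher share in the clones. Gpc4 had shares of 0.130 and 0.134 in PCGF35 and 0.420 and 0.427 in clones F10 and F6 (adjusted p = 3.46e-10). Gpc3, with at least 8423 allelic fragments per library, had 0.242 and 0.284 in PCGF35 and 0.502 and 0.527 in clones F10 and F6 (adjusted p = 3.99e-09). Hs6st2, which encodes a sulphotransferase that modifies heparan sulphate, also lies in this stretch, and its shares were 0.285 and 0.213 in PCGF35 and 0.529 and 0.516 in clones F10 and F6. Dmd, the dystrophin gene, had 0.140 and 0.149 in PCGF35 and 0.403 and 0.427 in clones F10 and F6, with an SD of 0.00653 in PCGF35 and 0.0171 in the clones. In each of these 4 genes both clones lay above both PCGF35 libraries. Itgb1bp2, which encodes the muscle protein melusin, had 0.233 and 0.152 in PCGF35 and 0.520 and 0.480 in clones F10 and F6. Elf4, an ETS transcription factor gene, had 0.288 and 0.319 in PCGF35 and 0.576 and 0.635 in clones F10 and F6. Dlg3, which encodes a synaptic scaffold protein, had 0.306 and 0.193 in PCGF35 and 0.529 and 0.488 in clones F10 and F6, and Gyk, the glycerol kinase gene, had 0.348 and 0.438 in PCGF35 and 0.590 and 0.713 in clones F10 and F6, the widest spread between clones among the 15 (SD 0.0867). Both fell short of the threshold when 1 library was left out: Dlg3 without PCGF35 replicate 2 (adjusted p = 0.0805), and Gyk without PCGF35 replicate 1 (0.0663) or without clone F6 (0.0844). The others, Pdzd4, Slc7a3, which encodes a cationic amino acid transporter, and Tex11, a meiosis gene, had differences of 0.277, 0.275 and 0.266. For these 15 genes the PCGF35 shares ranged from 0.0673 to 0.438 and the clone shares from 0.374 to 0.713.

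**Figure D3:**
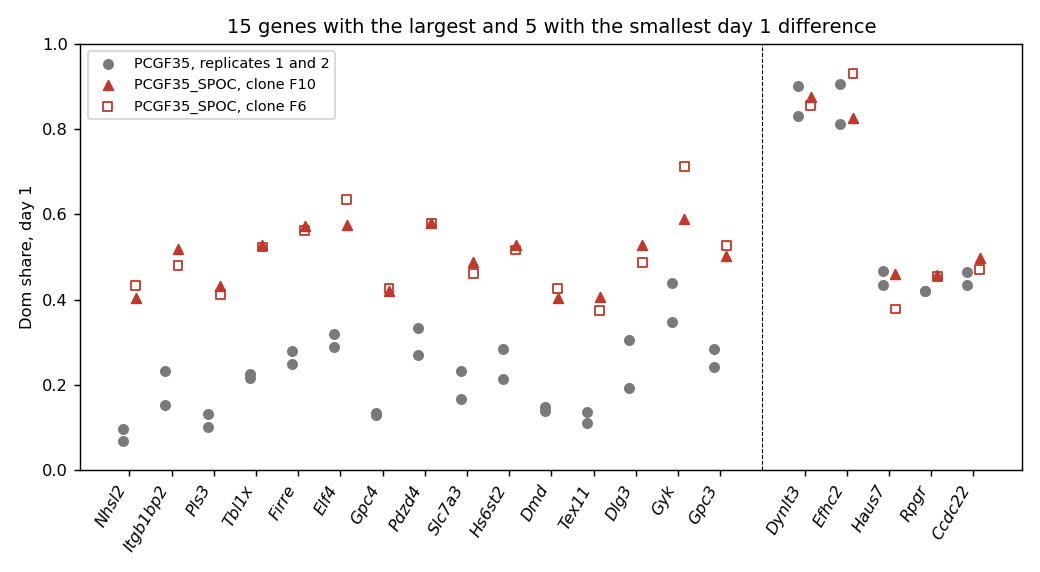
Dom share on day 1 (y axis) in each of the 4 libraries for the 15 called genes with the largest difference (left of the dashed line) and the 5 genes with the smallest (right), all with at least 100 allelic fragments per library. On the left both clones lie above both PCGF35 libraries for every gene, and on the right the groups overlap or lie within 0.04 of each other on average.

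At the other end were the 5 genes with the smallest absolute differences among those of the same depth. Dynlt3, a dynein light chain gene, had shares of 0.901 and 0.832 in PCGF35 and 0.875 and 0.855 in clones F10 and F6, and Efhc2 had 0.812 and 0.906 in PCGF35 and 0.827 and 0.930 in clones F10 and F6. Both were strongly Dom-biased on day 0 as well, at 0.831 to 0.933 and 0.803 to 0.917. Haus7, a subunit gene of the augmin complex of the spindle, had 0.468 and 0.434 in PCGF35 and 0.461 and 0.378 in clones F10 and F6 and overlapped between lines. Rpgr, a gene of the photoreceptor cilium, had 0.422 and 0.420 in PCGF35 and 0.457 and 0.455 in clones F10 and F6, and Ccdc22 had 0.464 and 0.433 in PCGF35 and 0.497 and 0.471 in clones F10 and F6. In the last 2 the clones were just above PCGF35, by 0.0351 and 0.0354, and none of the 5 passed the test (adjusted p = 1 in each). Fewer genes were called at low expression, where fragments are few: among the 82 X genes of the lowest uninduced expression 4 of 77 tested passed (5.19%), with a median difference of 0.124, against 64 of 81 (79.0%) with a median difference of 0.150 among the 82 of the highest.

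The functional groups of X genes moved in 1 direction with differing sizes. As background, the median difference over all X genes with a deposited ratio was 0.137, and 39.7% of tested genes passed. Both clones lay above both PCGF35 libraries for 86.2% of the X genes with a deposited ratio. Of 18 neuronal and developmental genes, 9 passed, among them Dmd, Gpc3, Gpc4, Nhsl2 and Dlg3, with a median difference of 0.214 and with both clones above both PCGF35 libraries for 17. Of 9 regulators of pluripotency and ERK signalling, 4 passed, with a median of 0.197. Among them Klhl13, an adaptor of a CUL3 ubiquitin ligase that is known to hold back exit from pluripotency in cells with a pair of active X chromosomes, had shares of 0.240 and 0.239 in PCGF35 and 0.336 and 0.373 in clones F10 and F6 (adjusted p = 0.00328). Nr0b1, which encodes the nuclear receptor DAX1, had 0.119 and 0.109 in PCGF35 and 0.339 and 0.347 in clones F10 and F6 (adjusted p = 1.38e-04). Of 18 transcription factor and Mediator genes 8 passed (median 0.167), including the Mediator subunit gene Med14 at 0.374 and 0.388 in PCGF35 and 0.523 and 0.551 in clones F10 and F6, while the TFIID subunit gene Taf1 did not pass, at 0.380 and 0.323 in PCGF35 and 0.402 and 0.405 in clones F10 and F6. Of 10 tested ubiquitin system genes 7 passed (median 0.147), led in depth by the deubiquitinase gene Usp9x at 0.388 and 0.379 in PCGF35 and 0.534 and 0.528 in clones F10 and F6 with at least 9005 fragments per library (adjusted p = 1.10e-08).

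Of 17 tested chromatin regulators 10 passed (median 0.124). Ogt, the O-GlcNAc transferase gene, had 0.393 and 0.399 in PCGF35 and 0.500 and 0.507 in clones F10 and F6 (adjusted p = 1.91e-05), and Jade3 differed by 0.182. Of 20 mitochondrial and metabolic genes 6 passed (median 0.114), among them the purine salvage gene Hprt at 0.432 and 0.438 in PCGF35 and 0.560 and 0.526 in clones F10 and F6. Of 22 tested genes of RNA processing and translation 9 passed (median 0.0998), with the ribosomal protein gene Rps4x at 0.375 and 0.370 in PCGF35 and 0.494 and 0.498 in clones F10 and F6 and the cold-inducible RNA-binding protein gene Rbm3 at 0.462 and 0.455 in PCGF35 and 0.528 and 0.515 in clones F10 and F6. The 6 genes known to escape inactivation in mouse had a median difference of 0.0852, and 2 of them passed, Firre and the RNA helicase gene Ddx3x (0.408 and 0.429 in PCGF35 and 0.489 and 0.522 in clones F10 and F6). Kdm6a, a histone demethylase gene and a classical escapee, kept shares of 0.535 and 0.539 in PCGF35 and 0.567 and 0.579 in clones F10 and F6 on day 1 from at least 3638 fragments per library, and was 0.553 to 0.582 on day 0 (adjusted p = 0.762 for the day 1 difference). No member of any of the 8 lists was called lower in PCGF35_SPOC.

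A residual fall was present in the PCGF35_SPOC clones. Against their own day 0 libraries, 195 genes had a lower mean Dom share on day 1 and 51 a higher one, with a median change of -0.0280 and quartiles of -0.0627 and -0.00510. Both day 1 libraries lay below both day 0 libraries for 101 genes (41.1%), against 13.9% of the autosomal genes; for PCGF35 the figures were 221 genes (89.8%) and 14.7%. In the edgeR fit no X gene with a deposited ratio passed in PCGF35_SPOC, and over the whole genome only Tsix did (0.00816% of 12257 genes), although 37 of 239 had an unadjusted p under 0.05. In PCGF35, 126 of 239 fell (52.7%; 1.08% of all 12257 genes tested). Because each clone is 1 cell line sampled on both days, the clone can be taken as a block. With this replicate block, in a fit of 8 libraries, 11 of 238 X genes fell in PCGF35_SPOC. Over all 12342 genes of that fit 14 were lower and 3 higher, and the fit blocks PCGF35 by its replicate number alone. limma on the ratios called 13 in PCGF35_SPOC and 192 in PCGF35. The 11 include Eda, Firre, Flna, Phka1, Msn and Cd99l2, named after their values were seen. Eda, which encodes the TNF-family ligand ectodysplasin, had shares of 0.481 and 0.493 on day 0 and 0.348 and 0.398 on day 1 in F10 and F6, and missed the threshold without the block by the least (edgeR adjusted p = 0.0502). Msn, the gene of the membrane linker moesin, went from 0.549 and 0.577 to 0.447 and 0.427, and Cd99l2, which encodes a cell adhesion protein, from 0.629 and 0.577 to 0.458 and 0.474. Phka1, a phosphorylase kinase subunit gene, went from 0.513 and 0.498 to 0.405 and 0.386. In PCGF35 these 4 genes had day 1 shares between 0.196 and 0.272, below both clones.

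The size of what remained can be read on the 126 genes that fell in PCGF35. This contrast compares PCGF35 libraries alone, but the fit that called it shares its spread with all 26 ES libraries, and it called 123 when either PCGF35_SPOC day 1 library was left out. Their median change was -0.204 in PCGF35 and -0.0294 in PCGF35_SPOC, against -0.173 and -0.0280 over all X genes with a deposited ratio. The 126 were chosen by their fall in PCGF35, which is also the denominator of the percentages below. Those percentages may therefore be too low. Gene by gene the fall in PCGF35_SPOC was 15.4% of that in PCGF35 at the median, with quartiles of 4.06% and 30.3%. It was more than 50% for 6 genes and absent for 21, and both day 1 clone libraries lay below both day 0 clone libraries for 63. The changes themselves were compared by an interaction term: 68 of 239 X genes (28.5%; 0.571% of all genes tested) had a smaller fall in PCGF35_SPOC than in PCGF35, and none had a larger one. Over all genes 69 passed in that direction (0.563%) and 1 in the other (0.00816%). limma on the ratios called 122 X genes in that direction and 2 in the other, Timp1 and Cetn2. The largest differences of changes were those of Gpc4 (0.315), Itgb1bp2 (0.306), Zmym3 (0.302), Firre (0.301) and Pls3 (0.290). Gpc4 went from 0.457 and 0.448 to 0.130 and 0.134 in PCGF35, and from 0.415 and 0.442 to 0.420 and 0.427 in the clones, where the day 0 and day 1 values overlapped. Zmym3, which encodes a zinc finger protein of histone deacetylase complexes, went from 0.528 and 0.511 to 0.201 and 0.200 in PCGF35, and from 0.480 and 0.533 to 0.506 and 0.473 in the clones. The count was 37 to 46 when a day 1 library was left out, and the calls of Itgb1bp2 and Zmym3, which have 80 to 256 allelic fragments per day 1 library, were lost in each case.

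Position along the X was described without a test, since neighbouring genes are not independent. In PCGF35 the median change was -0.207 for the 52 genes within 10 Mb of Xist, -0.166 for the 64 genes at 20 to 40 Mb, -0.220 for the 40 genes at 40 to 60 Mb and -0.115 for the 69 genes at 80 to 100 Mb. In PCGF35_SPOC the same groups changed by -0.0422, -0.0289, -0.0345 and -0.0100. The gap between the lines was present in each group, at 0.160, 0.122, 0.172 and 0.108 in share on day 1. Genes of the lowest uninduced expression had a median change of -0.0411 in PCGF35_SPOC and those of the highest -0.0149, while in PCGF35 the values were -0.184 and -0.178. Over all X genes with a deposited ratio, the change in PCGF35 and the change in PCGF35_SPOC had a Pearson correlation of 0.220 and a Spearman correlation of 0.331; many of these values rest on few fragments, and genes are not replicates.

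**Figure D4:**
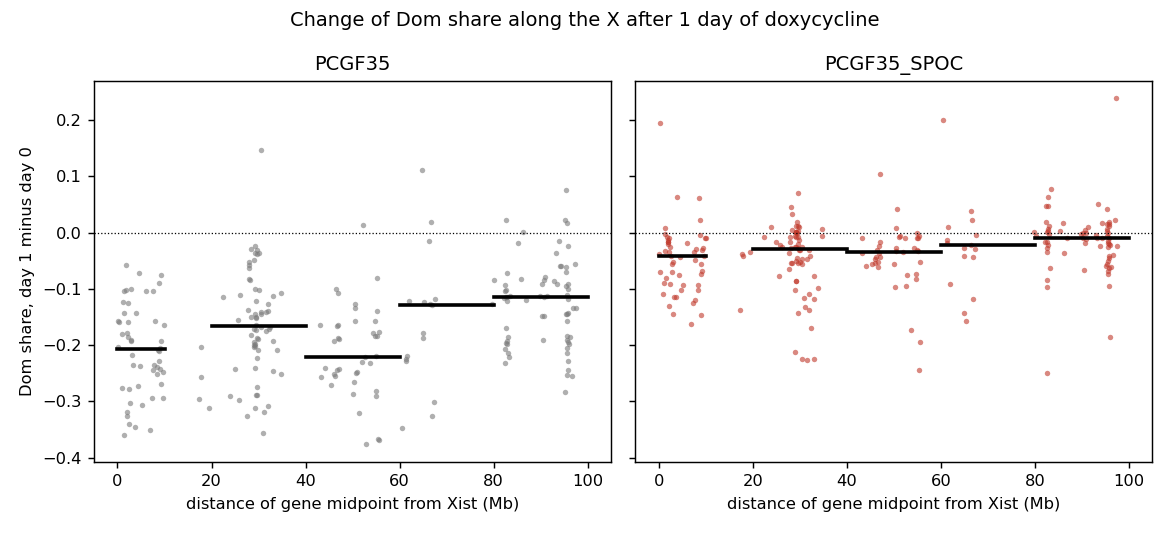
Change of Dom share from day 0 to day 1 (y axis, group means) against the distance of each gene's midpoint from Xist in Mb (x axis) in PCGF35 (left) and PCGF35_SPOC (right); horizontal bars are medians of distance groups with at least 10 genes. The bars run from -0.220 to -0.115 on the left and from -0.0422 to -0.0100 on the right.

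The difference lay mainly on the Dom allele. Scaled to all allelic fragments of a library (allele CPM), Dom fragments of the X genes summed to 6036 and 6055 in PCGF35 and to 9641 and 10801 in clones F10 and F6 on day 1, with no overlap, against 10897 to 12219 in the 4 day 0 libraries. Cast fragments summed to 11465 and 11626 in PCGF35 and to 10277 and 10988 in the clones, lower in the clones and also with no overlap. On day 0 they summed to 10229 to 11848. The per-gene values that follow were scaled instead to all fragments of a library, after TMM scaling. At the median gene, Dom CPM was higher in PCGF35_SPOC by 0.76 on the log2 scale, with 231 genes above 0. The log2 difference of Cast CPM was -0.10, with 98 above 0. From day 0 to day 1 the median Dom CPM changed by -1.05 in PCGF35 and -0.19 in PCGF35_SPOC, and the median Cast CPM by -0.01 and -0.03.

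Total expression, both alleles and unassigned fragments together, moved less. On day 1 PCGF35_SPOC exceeded PCGF35 by 0.27 (log2) at the median of the X genes with a deposited ratio, against 0.02 over all 15920 genes tested, and 191 of these X genes (77.6%) were above 0, against 52.3% of all genes. Both clones lay above both PCGF35 libraries for 96 of them (39.0%), against 13.8% of all genes. The median was 0.34 without clone F10 and 0.14 without clone F6. No gene passed an adjusted p of 0.05 in the edgeR fit (0% of 15920), with 427 genes higher (2.68%) and 367 lower (2.31%) at an unadjusted p under 0.05, and the DESeq2 Wald test called 16. Its 9 higher genes included Spen and the X genes Firre, Pls3, Armcx4 and Tro, named after their values were seen. Firre stood at 353 and 353 CPM in PCGF35 and 689 and 918 CPM in the clones (log2 fold change 1.19, edgeR adjusted p = 0.0888), and Pls3 at 37.1 and 35.9 against 63.5 and 67.7 CPM (0.84, edgeR adjusted p = 0.0551). Both had non-overlapping groups on day 1, as on the allelic measure. The 7 lower genes were autosomal and included Klf3, a Krüppel-like repressor gene, at 85.8 and 66.6 CPM in PCGF35 and 32.9 and 33.2 in the clones; it was also lower on day 0, at 64.6 and 41.0 against 30.1 and 26.5 CPM. From day 0 to day 1, edgeR called 6 genes in PCGF35 (0.0377%) and 2 in PCGF35_SPOC (0.0126%), Xist and Rapgef4 in both and the X genes Pls3, Tab3, Armcx4 and Armcx2, which fell, in PCGF35. The 4 falls were lost when either PCGF35 library was left out, and in the 8 untreated ES libraries alone, where Xist was the only call in both lines. Rapgef4 was not called in PCGF35_SPOC without clone F10. For the difference between these changes edgeR called no gene, with 73 higher (0.459%) and 25 lower (0.157%) at an unadjusted p under 0.05.

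**Figure D5:**
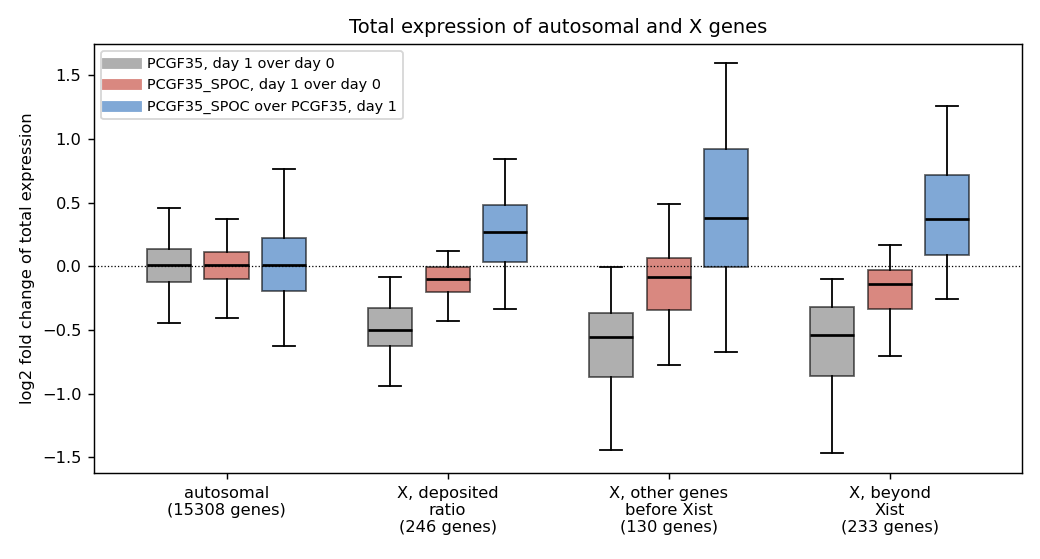
Log2 fold change of total expression (y axis) for autosomal genes and 3 sets of X genes (x axis): PCGF35 day 1 over day 0, PCGF35_SPOC day 1 over day 0, and PCGF35_SPOC over PCGF35 on day 1; boxes span the quartiles, lines are medians, and whiskers reach the 5th and 95th percentiles. The medians of the day 1 comparison are 0.01 for autosomal genes and 0.27, 0.38 and 0.37 for the X sets.

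X genes without a deposited ratio were also higher in total expression in PCGF35_SPOC at the median. The 130 other tested genes on the centromere side of Xist were higher by 0.38 (log2) at the median on day 1, and the 233 genes beyond Xist by 0.37, with 188 (80.7%) above 0. Among the genes beyond Xist total expression fell from day 0 to day 1 by 0.54 at the median in PCGF35 and by 0.14 in PCGF35_SPOC. The study names a recombination event in the iXist-ChrX-Dom line as 1 reason why some genes could not be evaluated by allele. The alleles of the genes beyond Xist could not be followed, since 0.658% to 1.26% of their allelic fragments were assigned to Dom in all 8 libraries, day 0 included. Rlim, which encodes an E3 ubiquitin ligase that promotes Xist expression, lies in this part: it stood at 628 and 933 CPM on day 0 and 336 and 450 on day 1 in PCGF35, and at 727 and 949 and then 654 and 878 in the clones (day 1 log2 fold change 0.96, edgeR adjusted p = 0.941). Outside the genes with a deposited ratio, 7 X genes had a called difference in Dom share, all higher in PCGF35_SPOC. Tsix, the antisense transcript across Xist, was 1 of them, with Dom shares of 0.177 and 0.235 in PCGF35 and 0.338 and 0.335 in the clones (edgeR adjusted p = 0.000693). In the clones it had fallen from 0.550 and 0.520 on day 0 (edgeR adjusted p = 0.00216). It overlaps Xist on the other strand, and the counts were made by strand.

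Among the 12 lists examined for total expression no member passed the adjusted test on day 1. All 13 naive pluripotency genes had a log2 fold change below 0, with a median of -0.46 and with both clones below both PCGF35 libraries for 10, where 47.7% of all genes were below 0 and 15.1% had both clones below. Zfp42 (Rex1) stood at 1269 and 749 CPM in PCGF35 and 642 and 539 CPM in the clones, and Klf5 at 139 and 117 against 76.7 and 53.2 CPM, while Nanog hardly differed (52.1 and 55.4 against 49.8 and 50.4 CPM). The difference was there before Xist was induced, with a day 0 median of -0.55. Of 12 ERK output genes 11 were below 0 (median -0.42, day 0 median -0.41), and Etv5 stood at 367 and 385 against 277 and 163 CPM. SPEN partners, PRC1 and PRC2 subunits had medians of -0.01, 0.00 and 0.00, among them Ncor1 (1328 and 913 against 942 and 745 CPM) and Hdac3 (22.2 and 21.6 against 21.1 and 25.6 CPM). The medians of the Notch and RBPJ list, core pluripotency, formative pluripotency, p53 targets and the X-inactivation centre were 0.17, -0.30, 0.04, -0.09 and 0.21. Feeder fibroblast markers (16 of 18 above 0, median 1.51) and early differentiation genes (8 of 9 above 0, median 0.72) included genes that stood out in clone F10: Col5a2 stood at 5.64 and 2.12 CPM in PCGF35, 34.7 in F10 and 1.34 in F6, and Nes at 18.8, 11.2, 69.3 and 18.7 CPM. Without Fn1 and Fbn1, the feeder markers of F10 summed to 69.0 CPM on day 0, against 14.2 in F6 and 18.7 and 16.8 in PCGF35. With them the day 0 sums were 726 CPM in F10, 499 in F6 and 674 and 616 in PCGF35. The part of these markers in the total expression differences was not tested. The Dom share difference was 0.150 in F6 alone.

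Against other lines of the series on day 1, the PCGF35_SPOC clones lay between cells with Polycomb depleted as well and cells with the SPOC mutation alone. The 3 SPOC libraries without the degron tag had medians of 0.433 to 0.446, all below the clones, a difference of 0.0376 (exact two-sided permutation p = 0.1, the smallest that 2 against 3 allows). From day 0 the SPOC libraries had fallen by 0.0711 in the mean of their medians, and PCGF35_SPOC by 0.0356. With dTAG-13 the same clones F10 and F6 stood at 0.508 and 0.512, each above its untreated library, by 0.0307 on average. An exact permutation that ignores this pairing gave p = 0.333, the smallest for 2 against 2. PCGF35 cells with dTAG-13 and intact SPEN stood at 0.399 and 0.417, between PCGF35 and PCGF35_SPOC without dTAG-13. The SPOC lines without the tag and the PCGF35_SPOC lines are different clones, so the clone and the genotype cannot be told apart in the first comparison.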

How the data were processed

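Chromatin-associated RNA-seq of mESCs was analysed. The authors, per the labels and paper, removed rRNA reads (Bowtie2 2.3.2), aligned pairs to N-masked mm10 (STAR 2.4.2a), split alleles with SNPsplit and counted fragments per gene by strand with featureCounts; the deposited counts are raw, 1 column each for all fragments, Cast and Dom. The authors also deposited a table of Dom fractions, 1 column for each of the 58 libraries; its gene list defined the X genes, and ratios were recomputed from the counts, so its 58 columns of values were not used. Allele counts were tested with edgeR 4.0.16 (R 4.3.3; quasi-likelihood, 1 term per library, a Dom term per group, all 26 ES libraries, mean of at least 20 allelic fragments) and total counts with edgeR after TMM scaling and filterByExpr; p-values were adjusted over all genes tested (Benjamini-Hochberg), with calls under 0.05. limma 3.58.1 on ratios, DESeq2 1.42.0, other sample sets, minimums and scalings, the replicate block and leaving out each library were alternatives. The limma p-values were adjusted over the 246 X genes alone. Log2 differences of allele CPM used all fragments of a library after TMM scaling and took a prior of 0.05. On simulated counts the allelic test recovered 56% of genes changed by 1 and 94% of those changed by 2 (log2, 12257 genes), and the total test 14.4% and 83.8% (15698 genes). The simulated spread was set by hand and was the same for all genes and libraries, so these rates need not hold for the real counts. Day 0 and day 1 deviations of same-clone libraries correlated at 0.847 (log2 CPM) and 0.214 (Dom share), those of same-numbered PCGF35 libraries at 0.683 and 0.123; clones pair by being 1 cell line, whereas PCGF35 libraries share only a number. Differences between libraries of 1 group exceeded counting noise (chi-square per degree of freedom 44.7 to 68.4), so no 2 were 1 library deposited again. Members, gene lists and tests were chosen with earlier results of these data known. Named genes were the 15 called with the largest day 1 difference and the 5 with the smallest (at least 100 allelic fragments in each library), the 5 largest differences of changes, up to 8 called per direction for total expression, up to 10 called falls in PCGF35_SPOC (none of either passed), Xist, Spen, Pcgf3, Pcgf5 and list members that were called or had the most fragments or highest CPM; Klf5, Nanog and Hdac3 were added after their values were seen. Some genes are not reported here. Coordinates are those of the count files (mm10). With 2 libraries a group, precision is limited, and allelic fragments per gene limit it further.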

Additional observations from a re-analysis of the deposited data

Results flagged for a closer look

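The change of Dom share from day 0 to day 1 differed between PCGF35_SPOC and PCGF35, by an interaction term, for 68 X genes, each with the smaller fall in PCGF35_SPOC. The genes named by the size of this difference were Gpc4 (0.315), Itgb1bp2 (0.306), Zmym3 (0.302), Firre (0.301) and Pls3 (0.290), as differences of changes in Dom share. No group had the 4 or more libraries that a test for a single deviating library needs.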

How the results depend on the processing

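With 2 libraries a group, calls depend on how the spread is estimated. X genes with a different Dom share on day 1 numbered 95, all higher, 85 to 102 under the other sample sets and minimums, 169 with limma on the ratios and 74 to 81 with a library left out; all 95 were among the 169. Genes with a different change numbered 68, 124 with limma (all 68 among them), 93 with the replicate block and 37 to 46 with a day 1 library left out (37 and 40 without PCGF35 replicate 1 and 2, 46 and 42 without clones F10 and F6). Falls in PCGF35_SPOC numbered 0, 1 (Eda) in the 8 untreated ES libraries, 1 (Eda) with a minimum of 10 fragments, 11 with the replicate block, 13 with limma and 0 to 1 with a day 1 library left out (Eda without clone F6). Falls in PCGF35 numbered 126, 192 with limma, 168 with the replicate block and 86 to 94 with a library left out. Total expression calls on day 1 numbered 0, 2 with all 58 libraries, 2 with total count scaling, 16 with DESeq2, and 0 with a library left out. Genes with a different change in total expression numbered 0 and 220 with the replicate block, 149 with a higher change in PCGF35_SPOC (128 on the X) and 71 with a lower one (0 on the X). Changes in total expression from day 0 to day 1 numbered 6 in PCGF35, 2 without replicate 1, 2 without replicate 2, 1 in the 8 untreated ES libraries, 4 with all 58 libraries (Xist, Rapgef4, Armcx4 and Tro), and 519 higher and 715 lower with the replicate block; in PCGF35_SPOC they numbered 2, 1 without clone F10, 1 in the 8 libraries, and 10 higher and 73 lower with the block. The median log2 fold change of X genes was 0.27, and 0.14 to 0.34 with a library left out, lowest without clone F6. The log2 fold change of Xist was -0.03, 0.038 under total count scaling, and 0.11 and -0.17 without PCGF35 replicate 1 and 2, 0.13 and -0.21 without clones F10 and F6. That of Spen was 1.52 in DESeq2, where it passed (adjusted p = 0.00404), and 1.12 to 2.03 with a library left out, with edgeR adjusted p from 0.152 to 1 over its alternatives. The difference of median Dom shares was 0.137 to 0.155 with a library left out and 0.142 as a change from the day 0 library of the same clone or number (replicate block). In PCGF35 the block rests on a replicate number alone, so fits with the block that involve this line are a check of the calls and not of the design. Of 235 values of named genes under alternatives 11 lost their call, and 5 of genes that were never called turned sign: the log2 odds ratio went to 0.36 (Dynlt3) and -0.45 (Efhc2) without PCGF35 replicate 1, and to 0.13 (Dynlt3), -0.40 (Efhc2) and 0.066 (Haus7) without clone F6, with ranges over the left-out libraries of -0.52 to 0.36 for Dynlt3 and -0.45 to 0.70 for Efhc2. The alternatives for falls by limma, all 58 libraries, other minimums and left-out libraries, the left-out libraries for the change of total expression, the alternatives for total expression from day 0 to day 1, and the DESeq2 test of Spen and Xist were chosen after seeing the data. The cause of these differences was not tested.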

Other observations

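After doxycycline 1 autosomal gene was higher in both lines. Rapgef4, which encodes the cAMP-responsive exchange factor EPAC2, stood at 16.8 and 13.6 CPM on day 0 and 162 and 115 on day 1 in PCGF35, and at 11.3 and 14.0 and then 111 and 63.0 CPM in clones F10 and F6. Its log2 fold changes of 3.19 and 2.78 (edgeR adjusted p = 0.000389 and 0.00245) were, with Xist, the only rises called in these lines in that fit. The call was lost in PCGF35_SPOC without clone F10, and in both lines in the 8 untreated ES libraries alone. The X genes Pls3, Tab3, Armcx4 and Armcx2, called lower in PCGF35 in the fit of 26 ES libraries but in none that left out a PCGF35 day 1 library, fell by 1.03, 0.71, 1.28 and 1.20 on the log2 scale, and Armcx4 had mean CPM of 50.8 and 20.9 there on days 0 and 1, and 48.4 and 41.7 in the clones.

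A few genes varied between libraries in a way the groups do not follow. Filip1l stood at 10320 CPM in the F10 day 0 library and between 9.86 and 621 CPM in the other 7 libraries, and D130009I18Rik was likewise highest there, at 3237 CPM against 0.771 to 297. Jarid2, a PRC2 cofactor gene, was at 4524 CPM in that F10 library and 1165 to 2045 in the other 7. These genes were picked after their values were seen. The difference between the PCGF35 day 1 libraries, replicate 1 minus replicate 2, had a Spearman correlation of 0.447 over 14089 genes with the difference of clone F10 minus clone F6, and 0.375 on day 0. The labels do not pair these libraries; the within-pair differences of median Dom share were 0.134 for F10 against replicate 1 and 0.159 for F6 against replicate 2.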
